A study of Mus musculus with 39 samples.

Results

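The 10 genes described here, Egr1, Egr2, Egr3, Fos, Fosb, Jun, Junb, Atf3, Nr4a1 and Ier2, are the classical immediate early transcription factors. They were taken by name from the 22180 genes that had a probe set annotated with that gene symbol alone. Each of the 10 had 1 such probe set, and 9 of them lay above the median of their array on all 39 arrays, while Egr3 did so on 36.

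The 39 mouse bone marrow samples were donor cells (CD45.1+) sorted from transplanted recipients at the end stage of disease and measured on single-colour Affymetrix Mouse Gene 2.0 ST arrays. The arm AE9a+miR-126 carried AE9a with miR-126 added, the arm miR-126KO+AE9a carried AE9a with miR-126 knocked out, and the arm AE9a carried AE9a alone. Each arm was passaged through recipients and sampled at passages 1, 2, 3 and 4 with 3 mice per passage, and 3 normal controls came from passage 1. All 36 leukaemia samples therefore carry AE9a, a truncated form of the AML1-ETO fusion protein that causes acute myeloid leukaemia in mice, and the normal controls are matched in passage to passage 1 only. The labels give neither the animals' age or strain nor the vectors, and they do not tie recipients to donors. The p-values thus measure the spread between the mice of a group, which may share a donor.

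Immediate early genes are switched on within minutes of a growth factor, cytokine or stress signal by factors already present in the cell, such as SRF with its ELK partners and CREB, and need no new protein to be made. Their products then bind DNA themselves: the EGR proteins bind GC-rich sites, the FOS and JUN proteins pair up as the AP-1 complex, and NR4A1 is a nuclear receptor that acts without a known natural ligand. In blood-forming cells EGR and AP-1 factors are known for roles in the choice between monocyte and granulocyte and in the response to inflammation, and loss of the NR4A receptors causes myeloid leukaemia in mice. Their transcripts are short-lived and respond to handling of the cells as well as to signals in the animal.

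The promoter windows of 5 members are shown, 3 (Fos, Fosb and Atf3) that rose between passages in every arm and 2 (Egr2 and Nr4a1) whose change differed between arms, each with 250 bases before and 50 bases after an annotated transcript start (RefSeq sequences, build GRCm38.p6). RefSeq windows were searched for 7 of the 10 members, namely Egr2, Fos, Fosb, Jun, Junb, Atf3 and Nr4a1. Egr1 was left out of the search beforehand, and no window was matched for Egr3 and Ier2. The counts of letters below therefore say nothing about these genes. Egr2 had 5 of the 11 windows. The capitals mark the CREB-type letters TGACG on either strand (CGTCA in the reverse sense), the EGR-type letters GCGNGGGCG on either strand, the CArG box that SRF binds, and TATAAA on the plus strand of the gene.
Fos, chr12:85473640-85473939, plus strand: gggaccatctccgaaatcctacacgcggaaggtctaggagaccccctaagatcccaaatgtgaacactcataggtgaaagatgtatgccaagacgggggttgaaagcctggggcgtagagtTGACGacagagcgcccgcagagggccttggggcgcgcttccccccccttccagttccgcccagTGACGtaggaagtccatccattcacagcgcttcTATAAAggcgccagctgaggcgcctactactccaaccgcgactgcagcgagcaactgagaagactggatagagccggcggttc
Fosb, chr7:19309996-19310295, minus strand: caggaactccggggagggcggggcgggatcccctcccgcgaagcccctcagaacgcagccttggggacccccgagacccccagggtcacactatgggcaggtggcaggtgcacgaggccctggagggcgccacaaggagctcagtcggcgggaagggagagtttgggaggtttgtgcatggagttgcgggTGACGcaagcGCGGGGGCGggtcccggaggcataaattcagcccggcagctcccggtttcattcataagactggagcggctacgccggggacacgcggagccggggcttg
Atf3, chr1:191183284-191183583, minus strand: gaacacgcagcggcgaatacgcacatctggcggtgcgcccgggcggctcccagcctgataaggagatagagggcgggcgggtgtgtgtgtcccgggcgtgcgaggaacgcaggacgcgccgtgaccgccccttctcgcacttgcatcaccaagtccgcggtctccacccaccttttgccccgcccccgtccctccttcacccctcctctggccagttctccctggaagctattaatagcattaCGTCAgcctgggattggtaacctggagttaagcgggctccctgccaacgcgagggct
Egr2, chr10:67537619-67537918, plus strand: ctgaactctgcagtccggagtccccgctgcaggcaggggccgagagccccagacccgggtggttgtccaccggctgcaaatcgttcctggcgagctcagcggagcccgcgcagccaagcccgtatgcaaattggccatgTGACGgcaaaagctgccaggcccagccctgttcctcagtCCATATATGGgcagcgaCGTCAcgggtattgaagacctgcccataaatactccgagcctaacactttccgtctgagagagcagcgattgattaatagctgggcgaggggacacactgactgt
Nr4a1, chr15:101266596-101266895, plus strand: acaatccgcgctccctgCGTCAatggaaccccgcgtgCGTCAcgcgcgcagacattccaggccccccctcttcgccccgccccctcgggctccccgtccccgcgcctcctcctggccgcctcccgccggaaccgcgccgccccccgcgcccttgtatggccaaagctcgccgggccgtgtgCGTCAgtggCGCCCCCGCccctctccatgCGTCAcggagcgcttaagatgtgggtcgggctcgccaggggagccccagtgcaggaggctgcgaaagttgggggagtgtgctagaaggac

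The letters TGACG were found in a window of 6 of the 7 members (all but Jun), against 20.8% of the 32851 mouse promoter windows of this length. Fos held them at -129 and -66 bases from the start, with TATAAA at -33, and Nr4a1 held them 4 times, at -233, -213, -69 and -40. The full CREB letters TGACGTCA (1.79% of all windows) and the AP-1 letters TGANTCA (7.81%) were in none of the windows of these 7 members. Among these 7 members, the CArG box (1.63% of all windows) was found in Egr2, at -72 in the window shown. The EGR-type letters (5.55%) were found in Fosb and Nr4a1, and TATAAA (13.6%) in Fos and Junb. TGACG lies within the full letters TGACGTCA, so these searches overlap. A match of letters describes the sequence and was not tested for binding.

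The microRNA that the arms differ in is shown by its RefSeq mature sequence (chr2:26591402-26591423, plus strand, GRCm38.p6), with the seed, bases 2 to 8, in capitals. No transcript sequence was available here in which to look for its sites.
mmu-miR-126a-3p: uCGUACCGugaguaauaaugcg

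All levels below are log2 signals as deposited, and differences are differences of group means on that scale, with the standard error of a limma fit over all 39 arrays. A gene was called where its p, adjusted by Benjamini and Hochberg over the 22180 genes, was below 0.05. In bulk samples fewer cells that express a gene and less RNA per cell cannot be told apart.

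Arrays of a group correlated with r between 0.89 and 0.99 and no 2 arrays were identical. The SD of an array over its probe sets ran from 1.43 to 2.08. It was under 1.8 on 8 arrays, of which 7 belonged to AE9a+miR-126 at passages 2 to 4 and 1 to miR-126KO+AE9a at passage 2. The array with the SD of 1.43, AE9a+miR-126 passage 3 replicate 3, also stood apart in the members: it was the lowest of the 9 arrays of its arm at passages 2 to 4 for 9 of the 10 genes, all but Jun, among them Egr1 at 7.95, Fos at 7.37 and Fosb at 10.36. Calls and counts of that arm that changed without it are given beside their values. The 6 haematopoietic markers averaged between 8.08 and 10.52 on every array, and the 6 stroma and endothelium markers between 5.0 and 5.75, close to the array medians of 5.38 to 5.76.

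In all 3 arms the members as a group were low at passage 1 and high from passage 2 on. At passage 4, against passage 1, 7 members rose in AE9a+miR-126, 7 in miR-126KO+AE9a and 9 in AE9a, and none was called lower. Egr1, Fos, Fosb, Jun, Atf3 and Ier2, 6 of the 10, rose in each of the 3 arms. Egr3 and Nr4a1 rose in 2 arms, Egr2 in 1 and Junb in none. Junb gained calls under alternative processing, given with its levels below. Of all genes 24.3% were called in AE9a+miR-126 (11.1% as higher), 4.04% in miR-126KO+AE9a (1.38% as higher and 2.66% as lower) and 2.94% in AE9a (2.02% as higher and 0.915% as lower). The median difference of the 10 members was 1.24 in AE9a+miR-126, 1.74 in miR-126KO+AE9a and 2.22 in AE9a, against 0.13, 0.01 and -0.05 over all genes. The labels give no date of sorting, extraction or hybridisation, so passage and such a batch cannot be told apart.

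**Figure D1:**
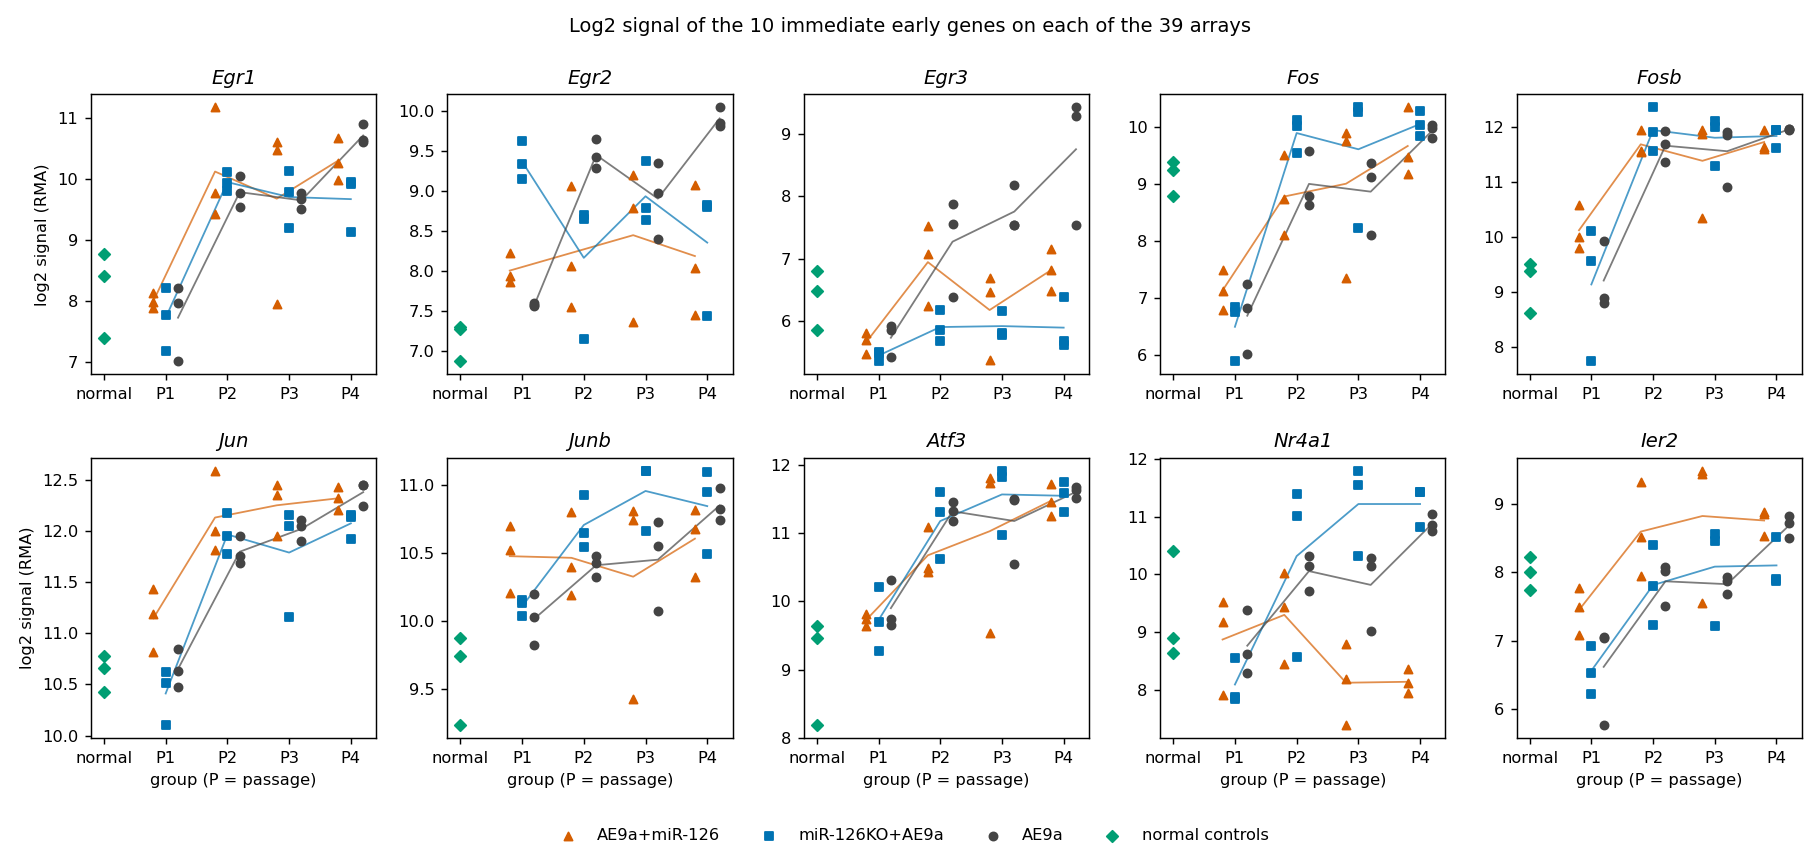
Log2 signal (y axis) of each of the 10 members on each of the 39 arrays, with normal controls at the left and passages 1 to 4 (P1 to P4) after them; points are single mice, lines join group means of an arm. Most members sit low at P1 and high from P2 on, Egr3 stays low in miR-126KO+AE9a, and Nr4a1 is lowest in AE9a+miR-126 among the arms at P3 and P4.

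**Figure D2:**
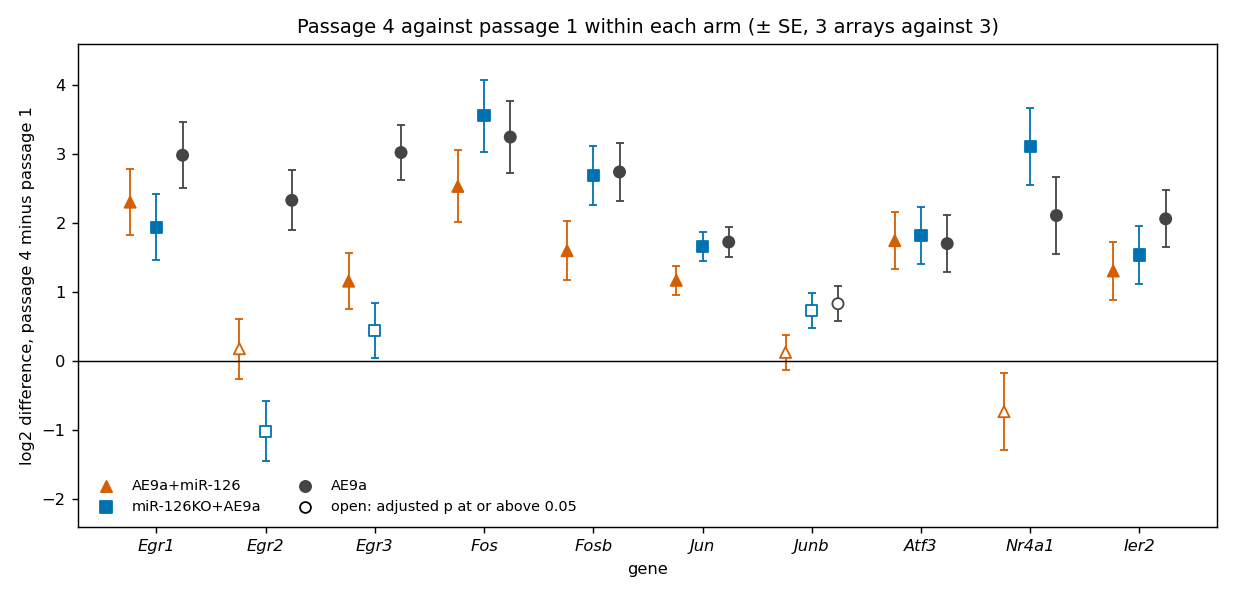
Difference in log2 signal between passage 4 and passage 1 (y axis, ± SE, 3 arrays against 3) for each member (x axis) and arm; filled points have an adjusted p below 0.05. Fos differed by 2.53, 3.56 and 3.25 in AE9a+miR-126, miR-126KO+AE9a and AE9a, and Egr2 by 0.18, -1.01 and 2.33.

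Fos, the partner of JUN proteins in AP-1, showed the widest swing. In AE9a+miR-126 it read 9.18, 9.48 and 10.36 at passage 4 and 6.80, 7.49 and 7.13 at passage 1. In miR-126KO+AE9a it read 10.28, 9.85 and 10.05 at passage 4 and 5.89, 6.85 and 6.76 at passage 1. In AE9a it read 9.98, 10.04 and 9.81 at passage 4 and 6.82, 7.25 and 6.02 at passage 1. No array of passage 4 overlapped one of passage 1 in any arm. Fos was 5.795-fold higher in AE9a+miR-126 (log2 difference 2.53 ± 0.52, adjusted p = 0.000719), 11.8-fold higher in miR-126KO+AE9a (3.56 ± 0.52, adjusted p = 5.56e-05) and 9.52-fold higher in AE9a (3.25 ± 0.52, adjusted p = 0.000286). Normal controls read 9.25, 9.40 and 8.80, so that the low group was passage 1 rather than the normal marrow.

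Fosb, a close relative of Fos, read 11.60, 11.64 and 11.94 at passage 4 and 9.80, 10.58 and 10.0005 at passage 1 in AE9a+miR-126. In miR-126KO+AE9a it read 11.95, 11.95 and 11.62 at passage 4, against 7.74, 10.12 and 9.56 at passage 1. In AE9a it read 11.97, 11.96 and 11.94 at passage 4, against 8.89, 9.93 and 8.81 at passage 1. Passage 4 stood clear of passage 1 in every arm. The differences were 1.60 ± 0.43 (adjusted p = 0.00706), 2.70 ± 0.43 (adjusted p = 0.000120) and 2.74 ± 0.43 (adjusted p = 0.000190) in that order of arms. Of the 39 arrays 12 lay between 11.9 and 12 for Fosb and 2 above, all 12 of them at passages 2 to 4, so differences among late groups are narrow for this gene; whether the probe set nears its upper limit there was not tested.

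Jun, the main JUN protein of AP-1, was the member with the smallest spread between mice (pooled SD 0.26). It read 12.20, 12.32 and 12.43 at passage 4 and 10.82, 11.43 and 11.19 at passage 1 in AE9a+miR-126. It read 12.14, 11.92 and 12.16 at passage 4 and 10.10, 10.51 and 10.62 at passage 1 in miR-126KO+AE9a. It read 12.24, 12.45 and 12.44 at passage 4 and 10.47, 10.85 and 10.63 at passage 1 in AE9a. The groups did not overlap, and Jun rose by 1.17 ± 0.21 (adjusted p = 0.000162), 1.66 ± 0.21 (adjusted p = 1.00e-05) and 1.73 ± 0.21 (adjusted p = 1.08e-05). Fos, Fosb and Jun kept their calls in all 3 arms under every alternative processing and with any 1 array left out.

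Junb, a JUN family member that limits myeloid growth in mice, was called in none of the arms at passage 4 against passage 1 as deposited. It read 10.68, 10.82 and 10.32 at passage 4 against 10.20, 10.70 and 10.52 at passage 1 in AE9a+miR-126, and 10.74, 10.83 and 10.98 against 10.02, 10.20 and 9.82 in AE9a. In miR-126KO+AE9a it read 11.10, 10.95 and 10.49 at passage 4 against 10.13, 10.15 and 10.03 at passage 1. The groups overlapped in AE9a+miR-126 and stood apart in the other arms. The differences of 0.13 ± 0.25 (adjusted p = 0.731), 0.74 ± 0.25 (adjusted p = 0.112) and 0.83 ± 0.25 (adjusted p = 0.0684), in AE9a+miR-126, miR-126KO+AE9a and AE9a, did not pass the test. Under cyclic loess Junb was called higher in each arm (0.68, 0.83 and 0.82, adjusted p = 0.0275, 0.0164 and 0.0229, in that order). It was also called in miR-126KO+AE9a and AE9a under quantile normalization (adjusted p = 0.0120 and 0.0156). The same held without the arrays of SD under 1.8 and in the fit on the compared groups alone. With the array SD as covariate it was called in miR-126KO+AE9a only. The other alternatives gained no Junb call here.

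Atf3, a stress-induced factor of the ATF and CREB family that pairs with JUN proteins, rose in each arm. Passage 4 read 11.46, 11.72 and 11.25 in AE9a+miR-126, 11.75, 11.60 and 11.31 in miR-126KO+AE9a and 11.68, 11.52 and 11.63 in AE9a. Passage 1 read 9.74, 9.64 and 9.81 in AE9a+miR-126, 9.27, 10.21 and 9.70 in miR-126KO+AE9a and 9.74, 10.32 and 9.65 in AE9a. Every array of passage 4 lay above every array of passage 1, and the differences were 1.75, 1.82 and 1.71 with an SE of 0.41 each (adjusted p = 0.00267 in AE9a+miR-126, 0.00634 in miR-126KO+AE9a and 0.0165 in AE9a). In AE9a the call did not hold in 4 of the 6 fits that left out 1 array of the comparison, and in miR-126KO+AE9a in 1 of 6.

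The EGR family, zinc finger factors of which Egr1 and Egr2 promote monocyte development in mice, did not all follow the same course. Egr1 read 9.98, 10.67 and 10.27 at passage 4 and 7.89, 8.13 and 7.98 at passage 1 in AE9a+miR-126. It read 9.92, 9.96 and 9.14 at passage 4 and 7.19, 7.78 and 8.23 at passage 1 in miR-126KO+AE9a. It read 10.61, 10.65 and 10.90 at passage 4 and 7.01, 8.21 and 7.97 at passage 1 in AE9a. Passage 4 lay above passage 1 on every array, with differences of 2.31 ± 0.48 (adjusted p = 0.000716), 1.94 ± 0.48 (adjusted p = 0.0123) and 2.99 ± 0.48 (adjusted p = 0.000253). The call in miR-126KO+AE9a did not hold in 3 of 6 fits that left out 1 array.

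Egr2 differed between arms at passage 1 already. It read 7.94, 8.22 and 7.86 in AE9a+miR-126, 9.62, 9.15 and 9.34 in miR-126KO+AE9a and 7.59, 7.57 and 7.56 in AE9a at that passage. At passage 4 it read 8.04, 9.08 and 7.45 in AE9a+miR-126, 8.80, 8.83 and 7.44 in miR-126KO+AE9a and 9.82, 9.86 and 10.05 in AE9a. The AE9a arm thus held both the lowest leukaemia group at passage 1 and the highest at passage 4, and rose 5.04-fold (2.33 ± 0.44, adjusted p = 0.00167). Passage 4 differed from passage 1 by 0.18 ± 0.44 in AE9a+miR-126 (adjusted p = 0.780) and by -1.01 ± 0.44 in miR-126KO+AE9a (adjusted p = 0.268), where all 3 arrays lay below those of passage 1. Without the 8 arrays of SD under 1.8, that miR-126KO+AE9a difference was called lower (-1.01, adjusted p = 0.0186).

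Egr3, an EGR factor that antigen receptors induce in T cells, was the dimmest member, with a median of 6.24 over the 39 arrays. At passage 4 it read 6.82, 7.16 and 6.48 in AE9a+miR-126, 6.39, 5.61 and 5.68 in miR-126KO+AE9a and 7.55, 9.29 and 9.44 in AE9a. At passage 1 it read 5.8, 5.47 and 5.70 in AE9a+miR-126, 5.49, 5.35 and 5.50 in miR-126KO+AE9a and 5.42, 5.86 and 5.92 in AE9a. All arms started low together, and the AE9a arm alone exceeded 9 at passage 4. Egr3 rose 8.15-fold in AE9a (3.03 ± 0.40, adjusted p = 3.71e-05) and 2.24-fold in AE9a+miR-126 (1.16 ± 0.40, adjusted p = 0.0350), and differed by 0.45 ± 0.40 in miR-126KO+AE9a (adjusted p = 0.820). The AE9a+miR-126 call was lost in 5 of 6 fits that left out 1 array and in 2 of 9 alternatives.

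Nr4a1, the nuclear receptor also called Nur77, read 11.42, 11.42 and 10.81 at passage 4 and 7.88, 7.85 and 8.56 at passage 1 in miR-126KO+AE9a. In AE9a it read 11.05, 10.75 and 10.85 at passage 4 and 8.30, 9.38 and 8.62 at passage 1. In AE9a+miR-126 it read 8.12, 8.37 and 7.95 at passage 4 and 9.52, 7.92 and 9.18 at passage 1. The groups of that last arm overlapped and those of the other arms did not. Nr4a1 rose 8.69-fold in miR-126KO+AE9a (3.12 ± 0.56, adjusted p = 0.000560) and 4.33-fold in AE9a (2.11 ± 0.56, adjusted p = 0.0310), the AE9a call being lost in 5 of 6 fits without 1 array. In AE9a+miR-126 the difference was -0.73 ± 0.56 (adjusted p = 0.335).

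Ier2, a nuclear protein that is induced with Fos and Jun, read 8.54, 8.89 and 8.85 at passage 4 and 7.08, 7.78 and 7.49 at passage 1 in AE9a+miR-126. It read 8.52, 7.88 and 7.90 at passage 4 and 6.53, 6.23 and 6.93 at passage 1 in miR-126KO+AE9a. It read 8.50, 8.83 and 8.72 at passage 4 and 5.77, 7.04 and 7.05 at passage 1 in AE9a. Passage 4 was above passage 1 on every array, by 1.31 ± 0.41 (adjusted p = 0.0221), 1.54 ± 0.41 (adjusted p = 0.0261) and 2.06 ± 0.41 (adjusted p = 0.00344). These calls were lost in 3, 5 and 1 of 6 fits without 1 array.

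Members were called higher by passage 2 already. Against passage 1, passage 2 had 5 members called higher in AE9a+miR-126 (11.2% of all genes called), 6 in miR-126KO+AE9a (5.69%) and 6 in AE9a (1.34%), and none lower. Fos was 1.65 ± 0.52 higher in AE9a+miR-126 (adjusted p = 0.0404), 3.40 ± 0.52 higher in miR-126KO+AE9a (adjusted p = 0.000153) and 2.31 ± 0.52 higher in AE9a (adjusted p = 0.0191). Between passage 4 and passage 2 no member was called in any arm by limma (2.06%, 0.987% and 0.784% of all genes called). At an unadjusted p below 0.05 Nr4a1 was lower in AE9a+miR-126 and Egr3 and Jun were higher in AE9a. All 10 members were nonetheless higher at passage 4 in AE9a, by 0.29 to 1.48 (median 0.70, against -0.03 over all genes). There the passage 4 arrays lay wholly above those of passage 2 for 9 members. In AE9a+miR-126 and miR-126KO+AE9a the median differences were 0.15 and 0.15, with arrays wholly above for 1 and 0 members. These 6 comparisons were added after the data had been seen. With 1 array left out, the counts for passage 2 against passage 1 ran from 2 to 5 in AE9a+miR-126, from 4 to 6 in miR-126KO+AE9a and from 2 to 4 in AE9a. Over passages 2 to 4 the 9 arrays lay wholly above the 3 of passage 1 for 9 members in miR-126KO+AE9a and 8 in AE9a, but for 1, Jun, in AE9a+miR-126. Without the array of lowest SD the AE9a+miR-126 count was 7, with Egr1, Egr3, Fos, Fosb, Ier2 and Atf3 added, an alternative chosen after seeing the data. Egr2 overlapped in miR-126KO+AE9a, and Junb and Nr4a1 in AE9a. Pooled over arms, 26 of the 27 late arrays exceeded all 9 passage 1 arrays for Egr1, Fos, Fosb, Jun and Atf3. The share of all genes whose arrays separate in these ways was not counted, so these counts have no background beside them.

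Set against the 3 normal controls, passage 1 leukaemia differed in few members. In AE9a+miR-126 Fos was lower and Junb higher, in miR-126KO+AE9a Fos and Ier2 were lower and Egr2 higher, and in AE9a Fos and Ier2 were lower. These are 2, 3 and 2 of 10 members, where 9.73%, 10.8% and 8.87% of all genes were called. As higher, 4.56%, 4.88% and 3.22% of all genes were called in these arms, and as lower 5.18%, 5.91% and 5.64%. The 3 comparisons share the same controls. Fos read between 5.89 and 7.49 on the 9 passage 1 arrays, all below the controls' lowest value of 8.80. It differed from the controls by -2.01 ± 0.52 in AE9a+miR-126 (adjusted p = 0.0114), by -2.65 ± 0.52 in miR-126KO+AE9a (adjusted p = 0.000747) and by -2.45 ± 0.52 in AE9a (adjusted p = 0.00294).

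Ier2 lay below all controls (8.00, 8.23 and 7.74) on 8 of the 9 passage 1 arrays. Its differences were -0.54 ± 0.41 in AE9a+miR-126 (adjusted p = 0.523), -1.43 ± 0.41 in miR-126KO+AE9a (adjusted p = 0.0220) and -1.37 ± 0.41 in AE9a (adjusted p = 0.0351). The Ier2 calls were each lost in 4 of 6 fits without 1 array. Egr2 was above the controls (7.31, 7.27 and 6.87) on all 9 arrays, and by 2.22 ± 0.44 in miR-126KO+AE9a (adjusted p = 0.000693), a call that no alternative and no left-out array removed. Junb in AE9a+miR-126 was 0.86 ± 0.25 higher (adjusted p = 0.0269), lost in 3 of 6 such fits.

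The late arms stood above the controls in most members. Over passages 2 to 4, 6 members were called higher in AE9a+miR-126, 7 in miR-126KO+AE9a and 7 in AE9a, and none lower, beside 53.5% and 12.4% of all genes called in either direction in AE9a+miR-126 and AE9a. As higher, 29.2%, 5.03% and 6.04% of all genes were called in the 3 arms, and as lower 24.3%, 7.93% and 6.35%. Egr1, Egr2, Fosb, Jun, Junb and Atf3 were called in each arm. Fosb had the largest differences of the members, 2.43 ± 0.35 in AE9a+miR-126 (adjusted p = 3.85e-06), 2.69 ± 0.35 in miR-126KO+AE9a (adjusted p = 2.34e-06) and 2.56 ± 0.35 in AE9a (adjusted p = 4.86e-06), and all 27 late arrays exceeded the controls' 8.62, 9.51 and 9.38. Jun was 1.61, 1.32 and 1.44 higher (SE 0.17 each) than controls of 10.66, 10.78 and 10.42, again on all 27 arrays. Atf3 was 1.97, 2.34 and 2.27 higher (SE 0.34 each) than controls of 8.19, 9.64 and 9.46.

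The seventh member differed by arm. It was Nr4a1 in miR-126KO+AE9a (1.60 ± 0.45, adjusted p = 0.0169) and Egr3 in AE9a (1.55 ± 0.33, adjusted p = 0.00141). Nr4a1 differed from the controls by -0.79 ± 0.45 in AE9a+miR-126 (adjusted p = 0.139) and by 0.94 ± 0.45 in AE9a (adjusted p = 0.202). Egr3 differed by 0.27 ± 0.33 in AE9a+miR-126 (adjusted p = 0.496) and by -0.47 ± 0.33 in miR-126KO+AE9a (adjusted p = 0.374).

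Fos did not pass the test against the controls in any arm at passages 2 to 4, with differences of 0.01 ± 0.43 in AE9a+miR-126 (adjusted p = 0.988), 0.71 ± 0.43 in miR-126KO+AE9a (adjusted p = 0.295) and 0.13 ± 0.43 in AE9a (adjusted p = 0.901). Ier2 differed by 0.74 ± 0.34 (adjusted p = 0.0655), 0.01 ± 0.34 (adjusted p = 0.987) and 0.14 ± 0.34 (adjusted p = 0.860). Without the array of lowest SD, Ier2 was called in AE9a+miR-126 (0.95, adjusted p = 0.00827) and the count there was 7. The miR-126KO+AE9a count was 4 without normal control 3.

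Ordered by group mean, a passage 1 group or the normal controls came last for each of the 10 members. The controls were lowest for Egr2, Junb and Atf3 and stood in the middle of the order for Fos, Egr3, Nr4a1 and Ier2. Of the 12 steps between neighbouring groups, the arrays on either side overlapped in all 12 for Egr3, Fosb, Jun, Junb and Nr4a1. A step without overlap was seen for Fos and Atf3 between the late group of lowest mean (AE9a+miR-126 passage 2) and the highest passage 1 group, for Egr1 between AE9a passage 3 and the controls, and for Ier2 between AE9a+miR-126 and AE9a at passage 1. Other groups can still overlap across such a step. AE9a+miR-126 passage 3 replicate 3 read 7.37 for Fos and 9.54 for Atf3, below the highest passage 1 values of 7.49 and 10.32. Its Egr1 of 7.95 lay below the controls' highest value of 8.78. Egr2 had 3 such steps, below AE9a passage 4, below AE9a+miR-126 passage 1 and below AE9a passage 1.

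The miR-126 arms were next set against the AE9a arm at the same passages, which asks whether the level of miR-126 goes with a different expression of these genes. Averaged over the 4 passages, AE9a+miR-126 had 5 of 10 members called. Of all genes 55.1% were called there, 30.7% as higher and 24.3% as lower. In miR-126KO+AE9a 1 of 10 was called, beside 8.17% of all genes (2.88% as higher and 5.29% as lower). Both counts are near the share over all genes, so they do not set the members apart. In AE9a+miR-126, Ier2 (0.66 ± 0.21, adjusted p = 0.00942) and Jun (0.25 ± 0.11, adjusted p = 0.0461) were higher. Nr4a1 (-1.27 ± 0.28, adjusted p = 0.000506), Egr3 (-0.98 ± 0.20, adjusted p = 0.000262) and Egr2 (-0.74 ± 0.22, adjusted p = 0.00567) were lower. None of these 5 calls held throughout: Jun was lost in 15 of 24 fits without 1 array and 2 of 9 alternatives, and Egr2, Nr4a1, Egr3 and Ier2 in 3, 2, 1 and 1 of 9 alternatives. In miR-126KO+AE9a, Egr3 was 3.01-fold lower (-1.59 ± 0.20, adjusted p = 3.44e-06). That call held in all 9 alternatives and all 24 fits without 1 array. Without the 8 arrays of SD under 1.8, which leaves no AE9a+miR-126 array of passage 3, the AE9a+miR-126 count was 1.

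**Figure D3:**
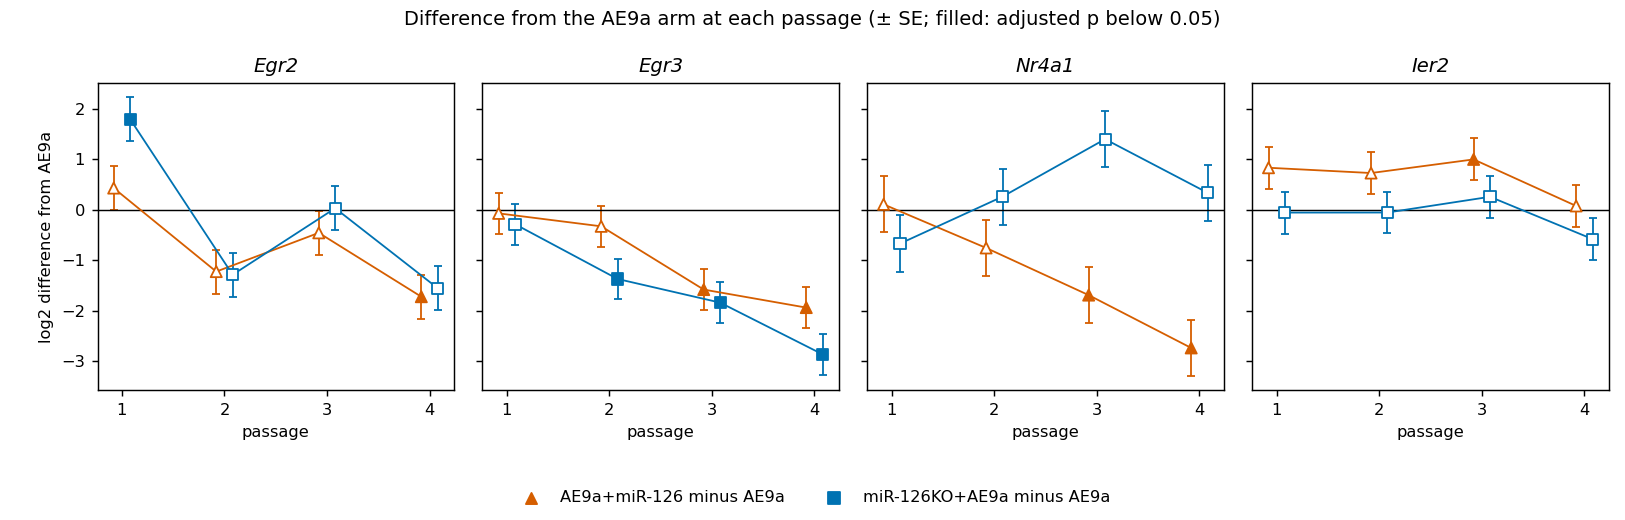
Difference in log2 signal from the AE9a arm (y axis, ± SE, 3 arrays against 3) at passages 1 to 4 (x axis) for Egr2, Egr3, Nr4a1 and Ier2 in AE9a+miR-126 and miR-126KO+AE9a; filled points have an adjusted p below 0.05. Egr3 lies at or below 0 in both arms and reaches -1.94 and -2.86 at passage 4, while Nr4a1 reaches -2.74 in AE9a+miR-126 and 0.34 in miR-126KO+AE9a.

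Passage by passage, 10 of the members' differences from AE9a were called, 6 in AE9a+miR-126 and 4 in miR-126KO+AE9a. At passages 1, 2, 3 and 4, 0.0316%, 8.85%, 52.2% and 24.7% of all genes were called in AE9a+miR-126 and 2.09%, 3.99%, 1.05% and 1.33% in miR-126KO+AE9a. In AE9a+miR-126, 0.0271% were higher and 0.00451% lower at passage 1, 3.18% higher at passage 2 and 24.8% lower at passage 3. In miR-126KO+AE9a, 1.50% were higher at passage 1. The 3 of 10 members called in AE9a+miR-126 at passage 3 are a smaller share than that of all genes. Egr3 read 5.86, 6.17 and 5.68 in miR-126KO+AE9a at passage 2, against 6.38, 7.55 and 7.89 in AE9a. It read 5.81, 6.16 and 5.78 in miR-126KO+AE9a at passage 3, against 8.19, 7.54 and 7.54 in AE9a. Every miR-126KO+AE9a array lay below every AE9a array at passages 2, 3 and 4. The differences were -0.29 (adjusted p = 0.919), -1.37 (adjusted p = 0.0479), -1.84 (adjusted p = 0.0155) and -2.86 (adjusted p = 8.25e-05) at passages 1 to 4, each with an SE of 0.40. The passage 2 call was lost in 6 of 9 alternatives and in 5 of 6 fits without 1 array. The passage 3 call was lost in 1 of 9 alternatives and in 3 of 6 such fits, and the passage 4 call in none.

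In AE9a+miR-126 Egr3 read 7.07, 6.24 and 7.53 at passage 2 and 6.47, 6.69 and 5.37 at passage 3. Its differences from AE9a were -0.07 (adjusted p = 0.997), -0.33 (adjusted p = 0.597), -1.58 (adjusted p = 0.00210) and -1.94 (adjusted p = 0.000966) at passages 1 to 4. The arm lay between the other 2, with Egr3 0.61 ± 0.20 higher than in miR-126KO+AE9a over the 4 passages (adjusted p = 0.0142), a call lost in 2 of 9 alternatives.

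Markers of T and NK cells differed between the arms beside Egr3. Of the 7 measured, 4 were called lower in miR-126KO+AE9a and 4 in AE9a+miR-126 (1 higher) against AE9a over the 4 passages. Of all genes 5.29% were lower in miR-126KO+AE9a, and 24.3% lower and 30.7% higher in AE9a+miR-126. The log2 of their summed signal ranged at passage 4 from 8.25 to 8.39 in AE9a+miR-126, from 8.00 to 8.29 in miR-126KO+AE9a and from 9.94 to 11.36 in AE9a, with normal controls between 9.21 and 10.22. Within AE9a passage 4, the array with Egr3 at 7.55 had a summed signal of 9.94, and those with Egr3 at 9.29 and 9.44 had 11.36 and 11.05. At passage 2 of AE9a the sum was 8.23, 8.36 and 8.59 and Egr3 read 6.38, 7.55 and 7.89. At passage 1 of AE9a the sum was 9.0, 8.67 and 8.74 and Egr3 read 5.42, 5.86 and 5.92. The T cell genes Cd3e and Cd3g averaged 9.18 ± 0.89 and 9.41 ± 0.70 in AE9a at passage 4 (SD, n = 3). At passage 3 of AE9a the array with the highest Egr3, 8.19, had a sum of 8.84, and the array with the highest sum, 9.61, had Egr3 at 7.54. Normal controls, with sums of 10.22, 9.72 and 9.21, had Egr3 at 6.48, 6.80 and 5.85. The part of T cells in the Egr3 levels was not tested at any passage.

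Nr4a1 in AE9a+miR-126 differed from AE9a by 0.11 (adjusted p = 0.997), -0.76 (adjusted p = 0.366), -1.69 (adjusted p = 0.0131) and -2.74 (adjusted p = 0.000797) at passages 1 to 4, each with an SE of 0.56. It read 9.43, 8.45 and 10.02 at passage 2 and 8.79, 8.20 and 7.40 at passage 3, against 10.32, 9.71 and 10.14 and then 9.03, 10.14 and 10.29 in AE9a. The arrays stood apart from passage 3 on, and at passage 4 the fold was 6.67. Without the array of lowest SD the passage 3 difference was -1.32 (adjusted p = 0.0944). That passage 3 call was lost in 3 of 8 alternatives and in 2 of 6 fits without 1 array. The difference was -0.58 under cyclic loess (adjusted p = 0.425) and -0.85 under quantile normalization (adjusted p = 0.210). With the array SD as covariate it was -0.66 (adjusted p = 0.664). The passage 4 call held in all alternatives and in all fits without 1 array. In miR-126KO+AE9a Nr4a1 read 11.38, 11.0041 and 8.57 at passage 2 and 10.31, 11.79 and 11.55 at passage 3, and its differences from AE9a lay between -0.67 and 1.40 with none called. Against miR-126KO+AE9a over the 4 passages, Nr4a1 was 3.03-fold lower in AE9a+miR-126 (-1.60 ± 0.28, adjusted p = 4.64e-05), beside 3 more members called there, namely Egr3, Jun (0.40 ± 0.11) and Ier2 (0.77 ± 0.21), with 49.7% of all genes called (21.7% as lower). Without the array of lowest SD, Egr1 was also called there (0.48, adjusted p = 0.0385), which made 5 members. With all arrays, the 4 of 10 members called are a smaller share than the 49.7% of all genes.

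Egr2 in miR-126KO+AE9a was 3.47-fold above AE9a at passage 1 (1.79 ± 0.44, adjusted p = 0.0233), where no array of either arm overlapped, and the call was lost in 5 of 6 fits without 1 array. Its later differences there were -1.29 (adjusted p = 0.0913), 0.03 (adjusted p = 1.00) and -1.55 (adjusted p = 0.0759) at passages 2 to 4. Without the 8 arrays of SD under 1.8 the passage 4 difference was called (adjusted p = 0.00193). In AE9a+miR-126 Egr2 was 3.30-fold lower at passage 4 (-1.72 ± 0.44, adjusted p = 0.00571), a call lost in 2 of 9 alternatives. Ier2 was called in AE9a+miR-126 at passage 3, with 9.49, 9.44 and 7.55 against 7.93, 7.68 and 7.87 in AE9a (1.00 ± 0.41, adjusted p = 0.0445). Of those 3 arrays the low one is the array of lowest SD, without which the difference was 1.63 (adjusted p = 0.00237). Egr1, Fos, Fosb, Junb and Atf3 were called in no comparison of a miR-126 arm with AE9a in the deposited scaling. That depends on the scaling. Under cyclic loess Egr1 (0.54, adjusted p = 0.0309), Fosb (0.61, adjusted p = 0.0175) and Junb (0.52, adjusted p = 0.000555) were called higher in AE9a+miR-126 over the 4 passages. Junb was also called under quantile normalization (0.29, adjusted p = 0.0276). Both scalings lost the Egr2 call over the 4 passages.

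The myeloid make-up of the arms differed beside these results. Against AE9a over the 4 passages, 11 of 12 neutrophil markers were called lower in AE9a+miR-126 and 12 of 12 in miR-126KO+AE9a. Of 11 monocyte and macrophage markers 10 were called lower in AE9a+miR-126, while in miR-126KO+AE9a 3 were higher and 1 lower. Of all genes 24.3% were lower in AE9a+miR-126, and 2.88% higher and 5.29% lower in miR-126KO+AE9a. At passage 4 the log2 summed signal of the neutrophil markers ranged from 11.56 to 12.23 in AE9a+miR-126, from 13.48 to 14.07 in miR-126KO+AE9a and from 14.59 to 15.06 in AE9a, and was 15.40 to 15.56 in normal controls. That of the monocyte and macrophage markers ranged from 11.87 to 12.79, from 13.77 to 13.95 and from 13.60 to 13.84 in the same arms, and was 13.34 to 13.45 in normal controls. Their part in the members' differences was not tested. Between passage 4 and passage 1 no neutrophil marker was called in AE9a or miR-126KO+AE9a, where 9 and 7 members rose. In AE9a+miR-126 11 of 12 were lower, beside 2926 of all 22180 genes called lower there. Of the monocyte and macrophage markers, 2 were called higher at passage 4 in AE9a, C1qb (3.93 ± 0.67) and Fcgr1 (2.48 ± 0.45), none in miR-126KO+AE9a, and 4 were lower in AE9a+miR-126. Their mean level in AE9a ranged from 9.37 to 9.77 at passage 4 and from 9.41 to 9.90 at passage 2, against 8.59 to 8.77 at passage 1. Mast cell and basophil markers in AE9a had mean levels of 6.80 to 8.10 at passage 4 and 6.82 to 7.39 at passage 2, against 5.69 to 6.23 at passage 1, with 1 of 6 called higher at passage 4, Cpa3 (2.94 ± 0.74). In miR-126KO+AE9a 4 of those 6 were called higher at passage 2 and none at passage 4, and in AE9a+miR-126 1 was higher and 2 were lower at passage 4. The part of these cells in the rise of the members was not tested.

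The other immediate early genes, 44 of 45 listed being measured, moved in part with the members. At passage 4 against passage 1, 8 were called higher and 5 lower in AE9a+miR-126 (median 0.00), 8 higher and 1 lower in miR-126KO+AE9a (median 0.47), and 14 higher and none lower in AE9a (median 0.93). Named by smallest adjusted p, the receptor Nr4a2 (2.53 ± 0.37), the JUN protein Jund (2.15 ± 0.30), the zinc finger factor Klf4 (3.19 ± 0.54) and the RNA-binding Zfp36l1 (2.40 ± 0.40) rose in AE9a. The kinase Sik1 (2.67 ± 0.44), Klf2 (2.65 ± 0.46), the clock gene Per1 (2.03 ± 0.36) and the antiproliferative Btg2 (1.93 ± 0.35) rose in miR-126KO+AE9a. In AE9a+miR-126 Myc (2.32 ± 0.34), Jund (1.39 ± 0.30) and Btg2 (1.50 ± 0.35) rose and Bhlhe40 fell by 2.78. Of all 22180 genes, 2469 were called higher and 2926 lower in that arm.

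Several of these genes were already above the normal controls at passage 1. Bhlhe40 was 2.38, 2.72 and 2.51 higher (SE 0.32 each) in AE9a+miR-126, miR-126KO+AE9a and AE9a, and Ier3, an apoptosis regulator, 2.11, 2.17 and 1.92 higher (SE 0.31 each). Over passages 2 to 4, 16 of 44 were called higher and 3 lower in AE9a+miR-126, 20 and 1 in miR-126KO+AE9a, and 28 and 0 in AE9a. As higher, 29.2%, 5.03% and 6.04% of all genes were called in these arms, and as lower 24.3%, 7.93% and 6.35%. Against AE9a over the 4 passages, 7 were higher and 20 lower in AE9a+miR-126, and 2 higher and 6 lower in miR-126KO+AE9a. Of all genes 30.7% were higher and 24.3% lower there in AE9a+miR-126, and 2.88% and 5.29% in miR-126KO+AE9a.

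Genes that act before or against the members are given next. Of all 22180 genes, 2469 were called higher and 2926 lower in AE9a+miR-126 at passage 4 against passage 1. In miR-126KO+AE9a 307 were higher and 590 lower, and in AE9a 449 were higher and 203 lower. Of 15 upstream factors and kinases, such as Srf, the ELK factors and the MAP kinases, 1 was called higher and 8 lower in AE9a+miR-126 at passage 4 against passage 1, none higher and 1 lower in miR-126KO+AE9a, and 1 higher and none lower in AE9a. Of 15 repressors and feedback genes, some of which are also among the other immediate early genes, 2, 1 and 4 were higher and 6, 1 and 1 lower. Dusp1, a phosphatase that switches off MAP kinases, rose by 1.14 ± 0.28 in miR-126KO+AE9a and 1.60 ± 0.28 in AE9a. Nab1, a corepressor that binds EGR proteins, fell by 2.67 in AE9a+miR-126 and by 0.84 in miR-126KO+AE9a. Of 16 other AP-1 and CREB partner factors, 1, 1 and 2 were higher and 4, 0 and 0 lower. Of 11 heat shock genes, a readout of protein stress, 1 was higher and 2 lower in AE9a+miR-126 and none was called in the other arms.

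Within groups the members also varied together from mouse to mouse. After the 13 group means had been taken off, all 45 pairs of members correlated positively over the 39 arrays, with a median Pearson r of 0.53 (range 0.05 to 0.81) and 26 pairs above 0.5. Egr1 with Ier2 (0.81), Jun with Ier2 (0.80), Egr1 with Junb (0.80) and Fos with Fosb (0.76) were the closest, and Egr2 with Jun (0.05) and Egr3 with Fosb (0.06) the loosest. Over the 31 arrays with an SD of 1.8 or more, 38 of 45 pairs were positive, with a median of 0.38 (range -0.32 to 0.78), and the negative ones all involved Egr2 or Egr3. The points share their array's scaling, and the values are a description.

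**Figure D4:**
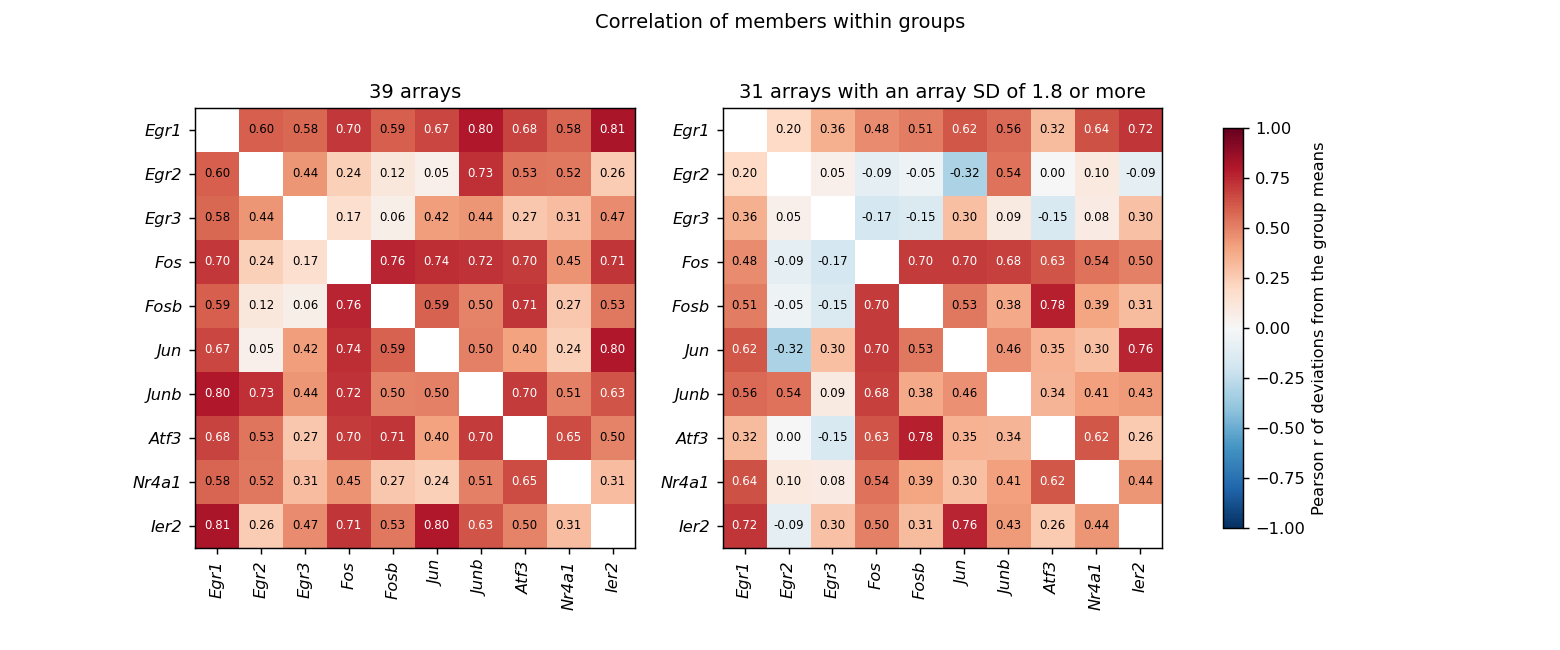
Pearson correlation (colour and number) between members, given on both axes, of deviations from the 13 group means, over all 39 arrays (left) and over the 31 arrays with an array SD of 1.8 or more (right). All pairs are positive on the left, and the negative pairs on the right all involve Egr2 or Egr3.

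Measured the same way against all genes, the nearest neighbours of several members were other immediate early genes. Among the 10 nearest genes of each member, 100 in all, 6 were members and 24 came from the list of other immediate early genes. That list held 44 of the 22180 genes. The nearest genes were sought over all 39 arrays only, and not again without the arrays of SD under 1.8. The 3 nearest were Klf2 (0.87), Clk1 (0.83) and Ppp1r15a (0.83) for Fos, Jund (0.77), Fos (0.76) and Ppp1r15a (0.75) for Fosb, and Ier2 (0.80), Klf11 (0.78) and Rin3 (0.74) for Jun. They were Ccnl1 (0.88), Irf1 (0.86) and Rel (0.85) for Junb and Tiparp (0.84), Socs3 (0.82) and Irf1 (0.82) for Atf3. For Egr1 they were Ccnl1 (0.90), Srsf5 (0.87) and Leng8 (0.86), and for Egr2 Zfand2a (0.87), Rel (0.84) and Fosl2 (0.83). Egr3 had Pde1b (0.79), Ager (0.78) and Lgals4 (0.78), Nr4a1 had Ifitm1 (0.85), Nr4a3 (0.84) and Irs2 (0.81), and Ier2 had Egr1 (0.81), Jun (0.80) and Btg2 (0.80). Egr1 and Egr3 had no member and no other immediate early gene among their 10.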

How the data were processed

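The deposited values are log2 expression values per probe set that the authors made with RMA, and Partek 6.0 is also named, per the submitters' processing notes; no label names a background setting, filter or batch step. Of 27037 probe sets, 23521 had 1 gene symbol, 1814 several and 1702 none in the platform annotation. The probe set with the highest mean stood for each of 22180 genes. One model with 13 group means (26 residual degrees of freedom) was fitted to all 39 arrays with limma 3.58.1 (lmFit, contrasts, eBayes) in R 4.3.3, and p-values were adjusted by Benjamini and Hochberg over all genes, with calls at 0.05 and no minimum fold. The fit was tested on simulated data. The members and gene lists were chosen with earlier results of these data known. Beyond the members, genes are named by smallest adjusted p in a list (up to 4) or by highest within-group correlation. Comparisons of passage 2 with passage 1 and of passage 4 with passage 2 were added after seeing the data. Replicate numbers do not pair the samples: in 1 of 14 pairs of groups did every same-numbered pair correlate above 0.1 (range -0.34 to 0.30). Alternatives were cyclic loess, quantile normalization, other filters, the array SD as a covariate, a replicate block and leaving out arrays. The number of arrays limits the precision.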

Additional observations from a re-analysis of the deposited data

Results flagged for a closer look

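In 5 cases the difference between a miR-126 arm and AE9a itself changed between passage 4 and passage 1, tested as an interaction in the limma fit (10.5% of all genes called for AE9a+miR-126 and 0.428% for miR-126KO+AE9a). In AE9a+miR-126 the change was -2.15 for Egr2 (adjusted p = 0.0270), -1.87 for Egr3 (adjusted p = 0.0354) and -2.84 for Nr4a1 (adjusted p = 0.0228). In miR-126KO+AE9a it was -3.35 for Egr2 (adjusted p = 0.00522) and -2.58 for Egr3 (adjusted p = 0.0266). The Egr2 change in miR-126KO+AE9a held in all alternatives and all fits without 1 array. The others did not. Each of the 3 in AE9a+miR-126 was lost in 3 to 5 alternatives and in 5 to 7 of 12 fits without 1 array. Egr3 in miR-126KO+AE9a was lost in 1 alternative and in 9 of 12 such fits. Both sets of changes share the AE9a arrays of passages 1 and 4.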

How the results depend on the processing

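Over the alternatives, 2404 of 2510 member values kept their direction and side of the threshold, 55 lost the call, 49 gained it and 2 reversed. With 1 array left out, 2364 of 2520 were kept, 144 were lost and 12 gained. Of the 92 called member values, 47 held throughout. Under cyclic loess the differences of Junb and Atf3 between AE9a+miR-126 and AE9a at passage 3 turned to 1.03 (adjusted p = 0.000892) and 1.01 (adjusted p = 0.0229), against -0.13 and -0.15; the cause was not tested. In AE9a+miR-126 the median of all genes at passage 4 against passage 1 was 0.13 as deposited, 0.00 under cyclic loess and 0.02 under quantile normalization. The 5 calls for a change of effect between passages became 2 under cyclic loess, 1 under quantile normalization and 2 with the array SD as covariate. Single passages gave 12 calls under cyclic loess and 6 with the array SD as covariate. AE9a+miR-126 against AE9a over the 4 passages gave 7 and 3 members under those settings. Without the arrays of SD under 1.8 that comparison gave 1, and passage 4 against passage 2 gave 1 in AE9a and 1 in AE9a+miR-126, where passages 2 and 4 then hold 1 array each. Fitted on the compared groups alone, passage 2 against passage 1 gave 3 in miR-126KO+AE9a, and passage 4 against passage 2 gave 1 in AE9a; the causes were not tested.

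Leaving out 1 array gave the following ranges of member calls. The change of effect ran from 1 to 5 and single passages from 7 to 12. Passage 1 against normal controls ran from 1 to 2 in AE9a+miR-126, 2 to 3 in miR-126KO+AE9a and 1 to 2 in AE9a. Passage 2 against passage 1 ran from 2 to 5, 4 to 6 and 2 to 4 in those arms, and passage 4 against passage 1 from 5 to 7, 4 to 7 and 6 to 9. Passage 4 against passage 2 ran from 0 to 1 in AE9a and was 0 in the other arms. Passages 2 to 4 against normal controls ran from 6 to 7 in AE9a+miR-126 and 4 to 7 in miR-126KO+AE9a and were 7 in AE9a. Over the 4 passages AE9a+miR-126 gave 4 to 5 against AE9a and 4 to 5 against miR-126KO+AE9a, and miR-126KO+AE9a gave 1 against AE9a. The low counts for passage 4 against passage 1 in miR-126KO+AE9a (4) came without its passage 1 replicate 1, and those for the change of effect came without AE9a passage 1 replicate 1 (1), AE9a passage 4 replicate 2 (3) or 3 (2), AE9a+miR-126 passage 1 replicate 1 (2) or 3 (3), or AE9a+miR-126 passage 4 replicate 1 (2). For passage 2 against passage 1, AE9a gave 2 without passage 1 replicate 1 or 3 or passage 2 replicate 3 and 3 without passage 2 replicate 1, and AE9a+miR-126 gave 2 without passage 1 replicate 1 or 3 or passage 2 replicate 1, and 3 without passage 1 replicate 2 or passage 2 replicate 3. AE9a passage 1 against normal controls gave 1 without any of the 3 controls or its replicate 1, and AE9a+miR-126 gave 1 without normal control 3 or any of its own 3 arrays. AE9a passage 4 against passage 2 gave 1 without passage 4 replicate 1.

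With the replicate number as a block, 3 calls were lost and none gained: Egr3 in AE9a at passage 2 against passage 1 (adjusted p = 0.0582), Ier2 in AE9a+miR-126 against AE9a at passage 3 (adjusted p = 0.0502) and Egr3 in miR-126KO+AE9a against AE9a at passage 2 (adjusted p = 0.0578). The single-passage calls numbered 8 under that block.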
